A study of Mus musculus with 20 samples.

Results

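The 36 genes described here encode the machinery that copies DNA and divides the cell: the replication helicase, the enzymes of deoxynucleotide supply, cyclins and Cdk1, mitotic kinases, the spindle checkpoint, spindle motors, and proliferation markers. They were taken by gene symbol from a list of cell cycle functions that was chosen with earlier results of these data known. All 36 were found among the 26608 genes of a table of 12 mouse kidneys and among the 30809 genes of a second table of 8 kidneys. All kidneys came from aged mice that had received a bone marrow transplant, so that the blood system derived from a donor and the kidney itself from the host. In the first table the transplants gave a Control blood system (n = 6, animals 3, 11, 12, 13, 16 and 17) or a LOY blood system, one that has lost the Y chromosome (n = 6, animals 5, 8, 9, 10, 14 and 18). In the second table every mouse carried a LOY blood system and received either a control compound (n = 4, animals 6, 8, 9 and 10) or ABT263 (n = 4, animals 15, 16, 17 and 18). ABT263, also written ABT-263 or navitoclax, inhibits anti-apoptotic proteins of the BCL-2 family and is used as a senolytic, a compound that kills senescent cells. The labels give 1 library per animal, and they give neither how the Y chromosome was lost, nor ages, sexes, doses and times, nor whether a number that occurs in both tables is the same animal. The comparisons ask how the transcripts of cell division differ in the kidney between a Control and a LOY blood system, and between a control compound and the senolytic.

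Cells that enter the cycle first transcribe genes of DNA replication, many of them through E2F factors, and later genes of mitosis, many of them through the DREAM and B-MYB complexes and FOXM1 acting at a promoter element called the cell cycle homology region. These transcripts are therefore widely read as marks of S phase and of G2 and mitosis. In the adult kidney few cells divide, surviving tubule cells re-enter the cycle after injury, and immune cells in the tissue can divide as well. In RNA from whole kidney, more dividing cells and more of a transcript in each cell cannot be told apart.

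Of the members with a promoter entry, the 4 with the smallest p in the LOY comparison are shown. The first pair rose with LOY, and the second pair are standard markers of dividing cells. Ccna2 had a smaller p than the second pair but no entry. The promoters of these 4 members are given below. Each is the stretch from 250 bases before to 50 bases after the annotated start in RefSeq (GRCm38.p6), 5′ to 3′ along the gene. Plk1 lies at chr7:122159185-122159484 on the plus strand, Birc5 at chr11:117848987-117849286 on the plus strand, Mki67 at chr7:135716330-135716629 on the minus strand and Top2a at chr11:99024140-99024439 on the minus strand. Capitals mark the letters TTTGAA (the core of the cell cycle homology region) or CCAAT (the CCAAT box) on either strand, so that TTCAAA and ATTGG are capitals too.
Plk1: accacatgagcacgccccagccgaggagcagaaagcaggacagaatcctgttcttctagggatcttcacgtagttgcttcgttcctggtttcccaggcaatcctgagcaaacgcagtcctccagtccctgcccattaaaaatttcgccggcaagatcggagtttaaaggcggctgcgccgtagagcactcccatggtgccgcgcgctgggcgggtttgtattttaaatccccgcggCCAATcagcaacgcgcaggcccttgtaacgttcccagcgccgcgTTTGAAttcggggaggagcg
Birc5: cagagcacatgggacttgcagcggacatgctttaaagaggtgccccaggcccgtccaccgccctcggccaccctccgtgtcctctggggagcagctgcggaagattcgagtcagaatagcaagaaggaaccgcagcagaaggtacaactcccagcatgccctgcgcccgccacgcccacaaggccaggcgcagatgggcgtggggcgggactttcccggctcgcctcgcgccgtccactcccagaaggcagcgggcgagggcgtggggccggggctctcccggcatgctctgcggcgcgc
Mki67: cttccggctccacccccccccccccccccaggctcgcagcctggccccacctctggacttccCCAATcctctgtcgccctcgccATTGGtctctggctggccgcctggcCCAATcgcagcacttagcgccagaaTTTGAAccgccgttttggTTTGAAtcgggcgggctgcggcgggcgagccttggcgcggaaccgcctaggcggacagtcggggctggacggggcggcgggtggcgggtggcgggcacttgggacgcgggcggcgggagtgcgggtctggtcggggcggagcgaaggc
Top2a: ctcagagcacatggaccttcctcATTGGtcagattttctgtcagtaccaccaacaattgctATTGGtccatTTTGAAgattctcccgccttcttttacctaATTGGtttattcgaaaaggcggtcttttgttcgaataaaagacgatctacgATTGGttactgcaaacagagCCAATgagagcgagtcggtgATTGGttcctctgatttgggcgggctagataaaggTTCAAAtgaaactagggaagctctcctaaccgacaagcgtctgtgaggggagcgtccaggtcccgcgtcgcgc

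Plk1 held 2 matches, Mki67 5 and Top2a 8, and the Birc5 window held 0. RefSeq windows of this length were matched for 30 of the 36 members. TTTGAA occurred in 16 of these 30 (53.3%), against 20.2% of the promoters of 27025 genes. It was present in 1 of 9 members with replication roles (Mcm2) and in 15 of 21 members with other roles. CCAAT occurred in 26 of 30 members (86.7%) against 41.1% of all genes. Of the E2F site letters, TTCCCGC was found in 2 of 30 members (6.67%, all genes 5.29%), and TTTGGCGC in 4 of 30 (13.3%, all genes 0.585%), which were Mcm3, Mcm5, Mcm6 and Ezh2. Both strands were searched and no searched motif contains another. A match describes the letters of this window and not a bound site.

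Total gene counts per kidney lay between 13332563 and 19386408 in the LOY table and between 14587809 and 20791633 in the ABT-263 table. Most members are scarce transcripts: the 36 together took between 227 and 392 CPM (counts scaled to library size) in any kidney of the LOY table and between 243 and 325 CPM in the ABT-263 table. Of the 36, 35 passed the filter on low counts in the LOY table, Bub1 (42 counts over all Control and 99 over all LOY kidneys) being the exception, and all 36 passed in the ABT-263 table. Per kilobase of exon, Pcna, the sliding clamp of the DNA polymerases, had the highest level of the 36 in both tables (18.3 CPM per kb in Control and 22.5 in LOY kidneys), followed by the helicase subunits Mcm6, Mcm7 and Mcm4 in that order. Cenpf, a kinetochore protein, had the lowest (0.106 and 0.133 CPM per kb). The 12 proximal tubule markers were detected in every kidney of both tables.

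Of the mitotic genes Plk1 and Birc5 rose in LOY kidneys and most others had positive changes that did not pass the threshold. With edgeR's quasi-likelihood test and an adjusted p below 0.05 over 14978 genes, 2 of 35 members rose and 0 fell, where 1.11% of all tested genes rose and 0.0601% fell (1.18% in either direction). Without any threshold, 33 of 35 members had a positive log2 fold change, against 52.3% of all genes. At an unadjusted p below 0.05, 16 of 35 were higher and 0 lower, where 13.5% of all genes were higher and 9.33% lower (22.8% together). In 3 members every LOY kidney was above every Control kidney, Plk1, Birc5 and Ccna2, against 1.56% of all genes, and in 0 members below, against 0.461%. The median log2 fold change was 0.56 over the 35 members and 0.02 over all tested genes. The count of 2 rested on single libraries: it was 7 without Control animal 3, 1 without LOY animal 18, and 0 without any one of Control animals 11, 12, 13, 16 and 17 or LOY animal 10. Over all genes the count of 176 became 607 without Control animal 3, 296 without LOY animal 18, 116 without LOY 14, 96 without LOY 9, and between 0 and 9 without any one of the 6 libraries named for a count of 0. The median of the members stayed between 0.45 and 0.66 when any one kidney was left out.

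**Figure D1:**
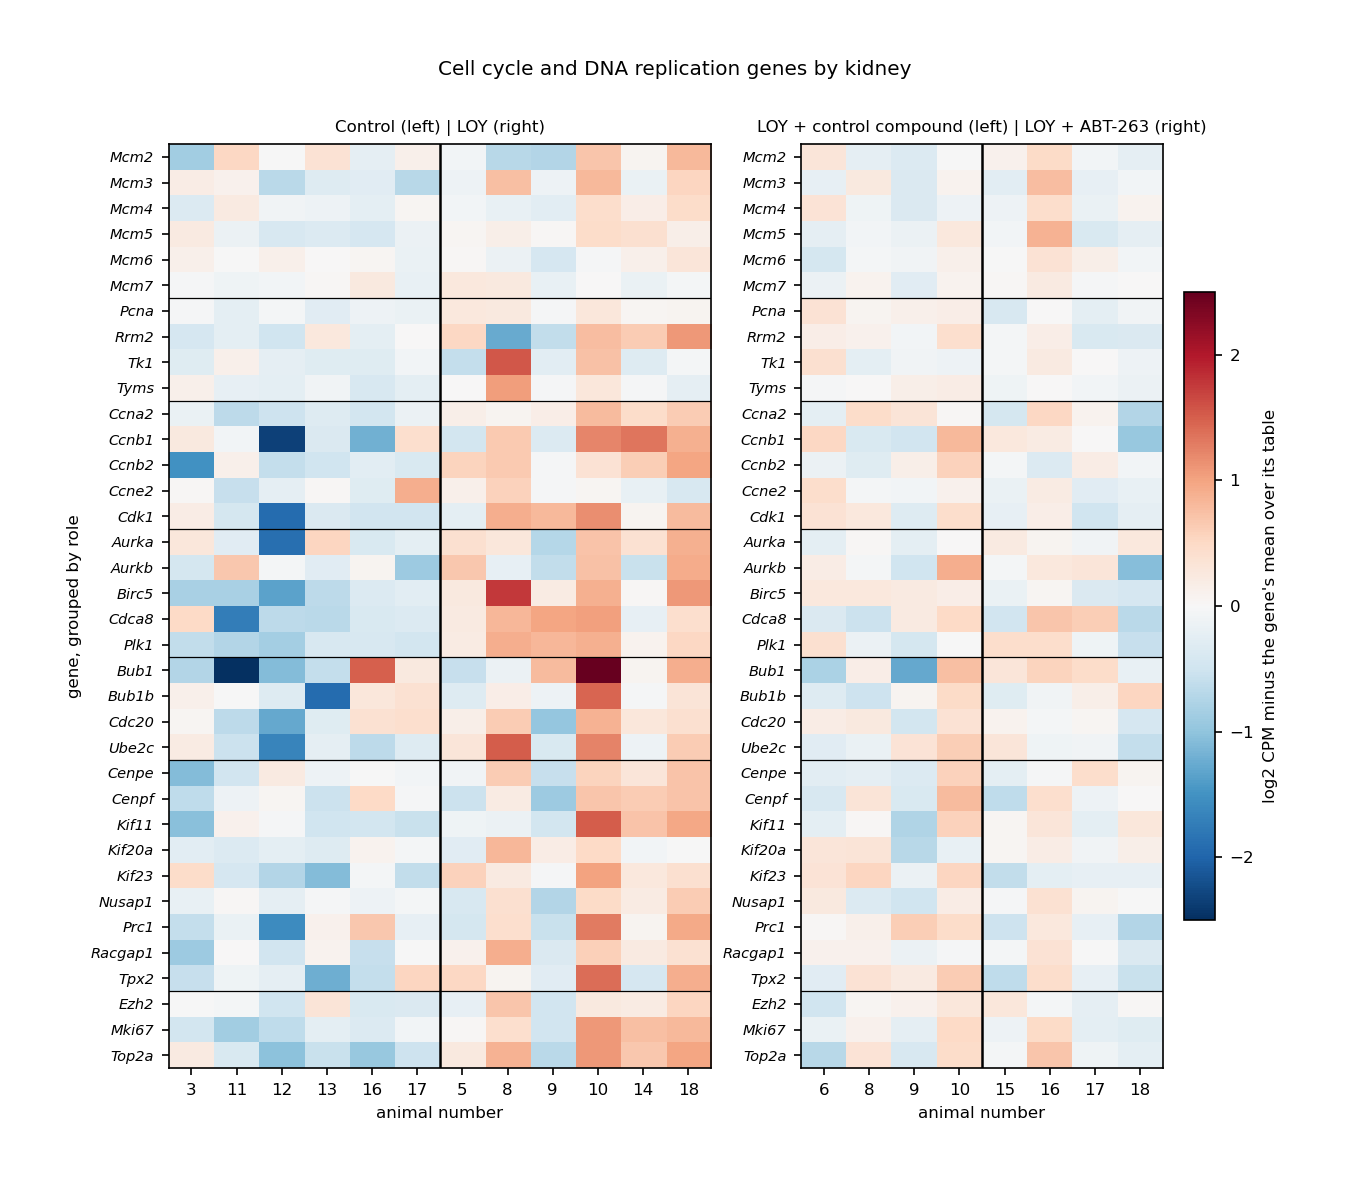
Heat map of the 36 genes (rows, grouped by role) in each kidney (columns, animal number), with colour giving log2 CPM minus the gene's mean over its table. Left, 6 Control and 6 LOY kidneys, where LOY animals 8, 10 and 18 are high for most rows and LOY animal 9 exceeds the table median in 8 of 35 tested rows and every Control kidney for Plk1, Birc5, Ccna2, Cdk1, Cdca8 and Kif20a. Right, 4 LOY kidneys with control compound and 4 with ABT-263, where animals 10 and 16 stand highest.

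Among the mitotic kinases and the chromosomal passenger complex, which corrects faulty spindle attachments, all 5 members had positive changes and 2 passed, with a median log2 fold change of 1.02. Plk1, the polo-like kinase that drives entry into and exit from mitosis (chromosome 7, 122159439 to 122169873, GRCm38), had 1.78 CPM in the lowest, 2.2 in the median and 2.42 in the highest Control kidney. In LOY kidneys it had 3.41, 5.12 and 5.99 CPM. Every LOY kidney stood above every Control kidney, and the Control values were close together. Its means were 2.15 ± 0.272 and 4.87 ± 1.15 CPM (SD, n = 6 each), a 2.25-fold rise (95% interval 1.64 to 3.09) with log2 fold change 1.17 ± 0.20 (SE; edgeR adjusted p = 0.025). Birc5 encodes survivin, the passenger subunit that also counts among the inhibitors of apoptosis (chromosome 11, 117849251 to 117855743). Birc5 had 0.775, 1.18 and 1.62 CPM in the lowest, median and highest Control kidney and 2.0, 2.97 and 6.66 CPM in LOY kidneys. The groups did not overlap, and LOY animal 8, at 6.66 CPM, was well above the next kidney, animal 18 at 4.17 CPM. Birc5 rose 2.82-fold (1.70 to 4.67), by 1.49 ± 0.33 on the log2 scale (edgeR adjusted p = 0.0432), and by 1.22 without animal 8 (adjusted p = 0.0477).

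The calls of Plk1 and Birc5 were lost in several fits with 1 kidney fewer. Without any one of Control animals 11, 12, 13, 16 and 17 or LOY animal 10, the edgeR adjusted p of Plk1 lay between 0.0667 and 0.0947 and that of Birc5 between 0.0905 and 0.133. Birc5 also missed the threshold without LOY animal 9 (0.0502) and without LOY animal 18 (0.0535). The log2 fold changes in all these fits lay between 1.10 and 1.21 for Plk1 and between 1.39 and 1.59 for Birc5. Exons of Plk1 overlap those of the predicted gene Gm44985, and the sources used here do not say whether the counting used strand. Shared exons make the values of Ccna2 (with Exosc9), Ccne2 (Ints8), Cdc20 (Elovl1), Kif20a (Cdc23), Nusap1 (Oip5), Prc1 (Rccd1), Tk1 (Afmid), Ube2c (Tnnc2), Top2a (Gm23451), Cdca8 (9930104L06Rik) and Ezh2 (Gm26625) uncertain in the same way. Of the other passengers and kinases, borealin (Cdca8) had means of 1.66 ± 0.806 and 3.36 ± 1.03 CPM in Control and LOY kidneys and a log2 fold change of 1.02 ± 0.33 (edgeR adjusted p = 0.127). The spindle pole kinase Aurka (0.56, adjusted p = 0.326) and the passenger kinase Aurkb (0.38, adjusted p = 0.514) had smaller differences.

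Of the cyclins and Cdk1, which form the kinases that drive S phase and mitosis, 0 of 5 passed, 4 were higher at an unadjusted p below 0.05, and the median log2 fold change was 0.98. Ccna2, cyclin A2 of S and G2 phase, had 2.11, 2.55 and 3.02 CPM in the lowest, median and highest Control kidney and 3.48, 4.18 and 5.78 CPM in LOY kidneys. The groups did not overlap, and its log2 fold change of 0.77 ± 0.20 had an edgeR adjusted p of 0.0652. Cdk1, the mitotic kinase subunit, had 0.62, 1.7 and 2.66 CPM in Control and 1.98, 4.1 and 5.21 CPM in LOY kidneys. LOY animals 5 and 14 were at 1.98 and 2.44 CPM, within the Control range, and the other 4 at 4.08 to 5.21 CPM were above it (log2 fold change 1.12 ± 0.32, adjusted p = 0.0942). The B cyclins, which activate Cdk1 at mitosis, were near 1.0 on the log2 scale: Ccnb2 had 1.56 ± 0.512 and 3.11 ± 0.702 CPM (0.99 ± 0.27, edgeR adjusted p = 0.0866) and Ccnb1 0.959 ± 0.514 and 1.92 ± 0.885 CPM (0.98 ± 0.43, adjusted p = 0.201). Cyclin E2 (Ccne2), which acts at the start of S phase, had 1.13 CPM on average in both groups and a log2 fold change of -0.01 ± 0.31, an interval that spans 0.613-fold to 1.60-fold.

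**Figure D2:**
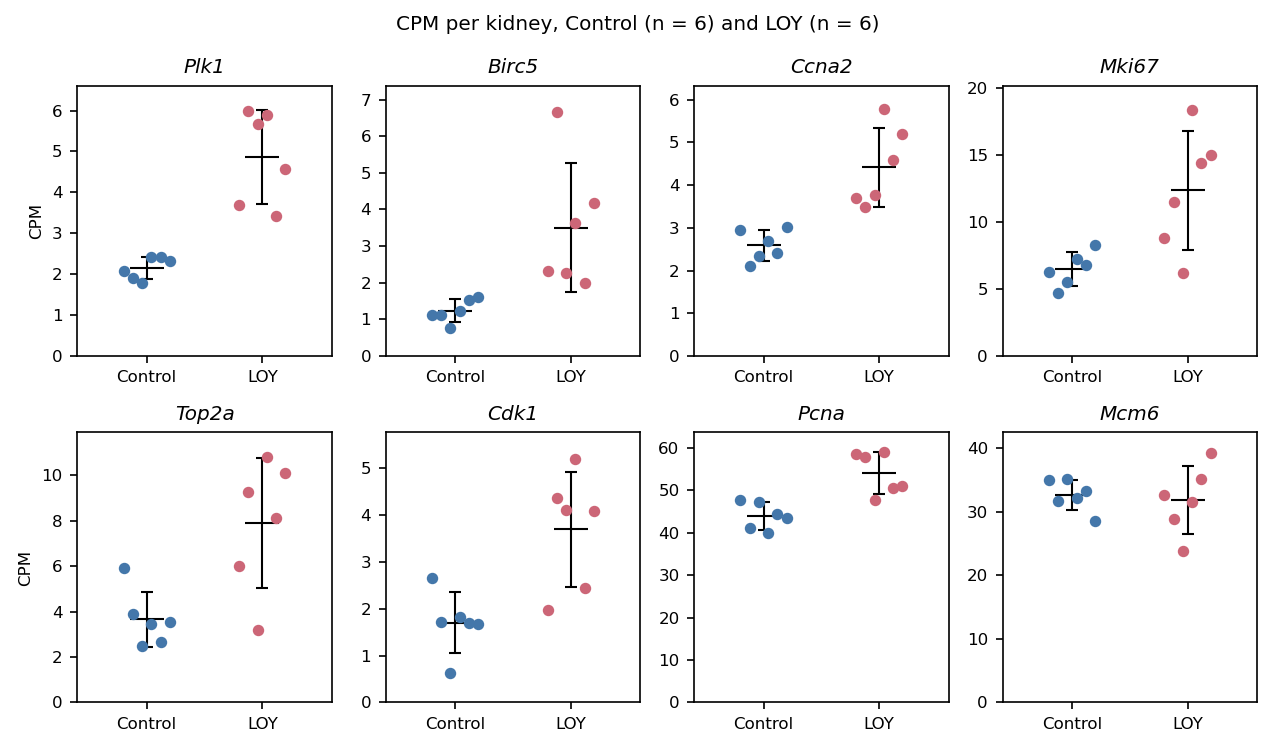
CPM of 8 genes in each kidney (points), Control (n = 6) against LOY (n = 6), with the mean (wide bar) and SD (error bars). Every LOY kidney is above every Control kidney for Plk1, Birc5 and Ccna2, while the Mcm6 groups overlap over most of their range, with medians of 32.7 and 32.0 CPM.

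The proliferation markers Mki67 and Top2a were both highest in LOY animal 10. Mki67 encodes the antigen Ki-67, a coat of mitotic chromosomes used to count dividing cells (chromosome 7, 135689784 to 135716361). It had 4.68, 6.51 and 8.24 CPM in the lowest, median and highest Control kidney and 6.17, 12.9 and 18.3 CPM in LOY kidneys. Only LOY animal 9, at 6.17 CPM, lay inside the Control range. The means were 6.45 ± 1.26 and 12.4 ± 4.45 CPM, the log2 fold change 0.94 ± 0.24 and the edgeR adjusted p 0.0659. Top2a, the topoisomerase that untangles sister chromatids (chromosome 11, 98992943 to 99024189), had 2.48, 3.5 and 5.91 CPM in Control and 3.19, 8.7 and 10.8 CPM in LOY kidneys. LOY animal 9 was again the lowest of its group and the only one inside the Control range, whose highest value was Control animal 3, and the log2 fold change was 1.12 ± 0.29 (edgeR adjusted p = 0.0673). Without LOY animal 9, Mki67 and Top2a passed the threshold along with Plk1. The histone methyltransferase Ezh2, an E2F target, had 6.62 ± 1.5 and 8.47 ± 2.46 CPM (0.36 ± 0.21, adjusted p = 0.314).

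Of 9 kinetochore, spindle and midzone genes, 9 had positive changes, 0 passed and 3 were higher at an unadjusted p below 0.05, with a median of 0.60. Kif23, the centralspindlin motor of the midzone, had 5.23, 7.81 and 15.4 CPM in the lowest, median and highest Control kidney and 10.9, 14.0 and 22.4 CPM in LOY kidneys (0.76 ± 0.24, edgeR adjusted p = 0.122). The highest Control value was that of animal 3, and the other 5 Control kidneys, at 5.23 to 10.7 CPM, were below all LOY kidneys. The values of its partner Racgap1 were 0.62 ± 0.24 on the log2 scale (adjusted p = 0.169) and of the spindle motor Kif11 0.96 ± 0.35 (adjusted p = 0.154). Kif11 was at 6.12 CPM in LOY animal 10 and at 1.03 to 2.31 CPM in Control kidneys. The remaining members of this role were the spindle assembly factor Tpx2 (0.77), the midzone bundler Prc1 (0.60), the kinetochore motor Cenpe (0.53), the midzone motor Kif20a (0.42), Cenpf (0.35) and the spindle protein Nusap1 (0.28).

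The spindle checkpoint delays the anaphase-promoting complex (APC/C) until chromosomes are attached. Ube2c, the conjugating enzyme of the APC/C, had 1.99 ± 0.743 CPM in Control and 4.31 ± 2.21 CPM in LOY kidneys (1.11 ± 0.35, edgeR adjusted p = 0.122), with LOY animals 8 and 10 highest at 7.62 and 6.29 CPM. The APC/C activator Cdc20 (0.44, adjusted p = 0.396) and the checkpoint kinase-like Bub1b (0.47, adjusted p = 0.437) overlapped between groups. Bub1, the checkpoint kinase below the count filter, was at 0.066 to 1.39 CPM in Control and 0.33 to 2.83 CPM in LOY kidneys, and 2.83 CPM belonged to animal 10.

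The 6 subunits of the MCM helicase, which is loaded on DNA in G1 and unwinds it in S phase, had a median log2 fold change of 0.14, and 0 of 6 passed. Mcm2 had 6.51, 12.4 and 17.0 CPM in the lowest, median and highest Control kidney and 7.17, 11.9 and 20.8 CPM in LOY kidneys (0.09 ± 0.29, edgeR adjusted p = 0.857). Its spread within each group was wider than the difference of the means, 12.3 ± 3.72 against 13.1 ± 5.83 CPM. Mcm6, at 32.7 ± 2.44 and 31.9 ± 5.32 CPM, had a fold of 0.977 (95% interval 0.816 to 1.17), and Mcm7, whose exons overlap Ap4m1 and Cops6, of 1.03 (0.865 to 1.22). Mcm5 had 6.38, 7.23 and 9.98 CPM in Control and 8.73, 9.44 and 11.8 CPM in LOY kidneys, overlapping only through Control animal 3 (0.40 ± 0.15, adjusted p = 0.163). Mcm3 (0.58 ± 0.23, adjusted p = 0.172) and Mcm4 (0.19 ± 0.16, adjusted p = 0.465) lay on either side of it. The subunits of one complex thus ranged from -0.03 to 0.58, and whether they differ from each other was not tested.

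The clamp and the enzymes of nucleotide supply had a median of 0.48, with 4 of 4 positive and 0 past the threshold. Pcna (chromosome 2, 132249162 to 132253314) had 39.8, 43.9 and 47.8 CPM in the lowest, median and highest Control kidney and 47.7, 54.4 and 58.9 CPM in LOY kidneys. The groups overlapped through Control animal 3 (47.8 CPM) and LOY animal 9 (47.7 CPM), and the means were 43.9 ± 3.2 and 54.1 ± 4.91 CPM (0.30 ± 0.09, edgeR adjusted p = 0.106). Rrm2, the ribonucleotide reductase subunit made in S phase, had 2.4, 2.85 and 4.05 CPM in Control and 1.41, 5.04 and 7.18 CPM in LOY kidneys (0.56 ± 0.33, adjusted p = 0.304). LOY animal 8 had the lowest Rrm2 of all 12 kidneys (1.41 CPM) and the highest thymidine kinase Tk1 and thymidylate synthase Tyms (39.7 and 29.6 CPM). Elsewhere Tk1 reached at most 22.5 CPM and Tyms 17.3 CPM. Their log2 fold changes were 0.56 ± 0.31 (adjusted p = 0.283) and 0.41 ± 0.20 (adjusted p = 0.232). Animal 8 also had the lowest scaling factor of the table (0.884, the others 0.963 to 1.12), and the part of that factor in these values was not tested.

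**Figure D3:**
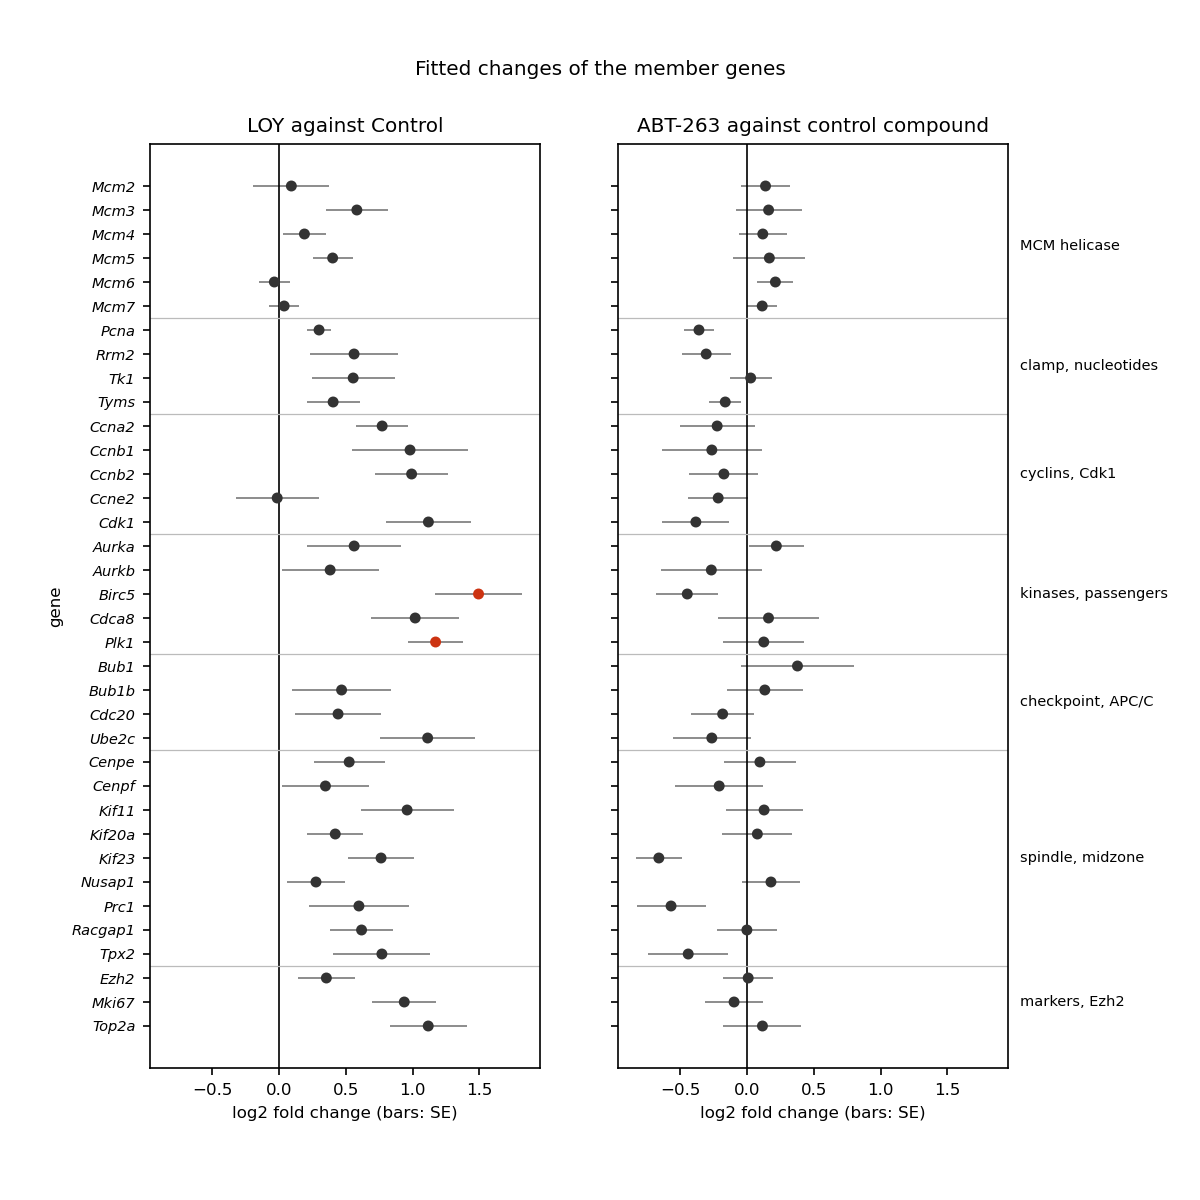
Fitted log2 fold change (points) and SE (bars) of each gene, LOY against Control (left) and ABT-263 against control compound (right), grouped by role. Red points passed an adjusted p of 0.05, which Plk1 and Birc5 did on the left and no gene on the right. Bub1 was not tested on the left.

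The kidneys of the LOY group were unlike each other. The summed CPM of the 36 members lay between 227 and 256 in the 6 Control kidneys. In LOY kidneys it was 287 in animal 5, 367 in animal 8, 236 in animal 9, 392 in animal 10, 294 in animal 14 and 346 in animal 18. All but animal 9 were above every Control kidney. Animal 10 had the highest value of the table in 14 of 35 members, animal 18 in 10 and animal 8 in 8. Animal 9 exceeded the table median in 8 of 35 members, where the Control kidneys did so in 6 to 15. Animal 9 was nevertheless above every Control kidney in 6 members: Plk1 (5.68 against at most 2.42 CPM), Cdk1 (4.12 against 2.66), Cdca8 (4.33 against 3.1), Birc5 (2.27 against 1.62), Ccna2 (3.76 against 3.02) and Kif20a (4.54 against 4.25). Leaving out LOY animals 8 and 10 together gave 0 members past the threshold, 31 of 35 positive and a median of 0.35. For this fit the share of positive genes and the median over all genes are not given here. Of the 6 LOY animals 4 were numbered up to 10, and of the 6 Control animals 1 was. With number above 10 as a term in the fit, 0 members and 0 of all 14978 genes passed edgeR's test (1194 genes and 15 members at an unadjusted p below 0.05). In that fit 33 of 35 members were positive, with a median of 0.58. Among animals above 10 alone (5 Control, 2 LOY), 4 members passed (Mki67, Top2a, Kif23 and Rrm2) and 33 of 36 were positive. Plk1 and Birc5 did not pass there (edgeR adjusted p = 0.13 and 0.0911). The number of all genes that passed is given further below. Shares of positive genes over all genes are not given for this fit or the one with the added term. The counts of positive members in these fits therefore have no background and are not read as a result about the members.

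Some markers of immune cells and of tubular injury rose as well. All 15 macrophage markers had positive changes and 8 rose, with summed levels of 280 to 457 CPM in Control and 512 to 726 CPM in LOY kidneys. Of 15 T and NK cell markers 13 were in the table and 11 tested, which were all positive, and 4 rose (14.1 to 20.9 against 27.2 to 50 CPM), while Ncr1 was at 0 in every kidney. Of 16 tubular injury genes 15 were positive and 7 rose (2150 to 4130 against 4030 to 9480 CPM). All 7 tested B and plasma cell markers were positive and 0 passed (17.2 to 95.5 against 41.2 to 129 CPM). Animal 9, whose summed cell cycle level lay in the Control range, was above every Control kidney in macrophage (512 CPM), T and NK cell (31.5 CPM) and tubular injury sums (4180 CPM). Animal 10, highest in the cell cycle sum, was highest in the macrophage and injury sums (726 and 9480 CPM) and lowest of the LOY kidneys in the T and NK cell sum (27.2 CPM). Of 11 fibroblast and mural cell markers 10 were positive and 0 passed, 5 at an unadjusted p below 0.05 (393 to 736 against 627 to 1010 CPM). Of 8 urothelial cell markers 7 were positive and 0 passed, with a median log2 fold change of 0.71 (20.3 to 136 against 52.5 to 258 CPM). LOY animals 8 and 10 were highest in that sum, at 258 and 168 CPM. Of 12 proximal tubule markers 10 were negative and 0 passed, 6 at an unadjusted p below 0.05, with a median log2 fold change of -0.45. The median log2 deviation of the proximal tubule markers was 0.02 to 0.34 in Control kidneys, -1.01 in LOY animal 10, -0.64 in animal 8, -0.10 in animal 18 and 0.02 to 0.13 in the other 3 LOY kidneys. Their summed levels were 34500 to 39300 CPM in Control and 25400 to 65000 CPM in LOY kidneys, the highest being animal 8. The part of these cells and of injury in the cell cycle transcripts was not tested.

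**Figure D4:**
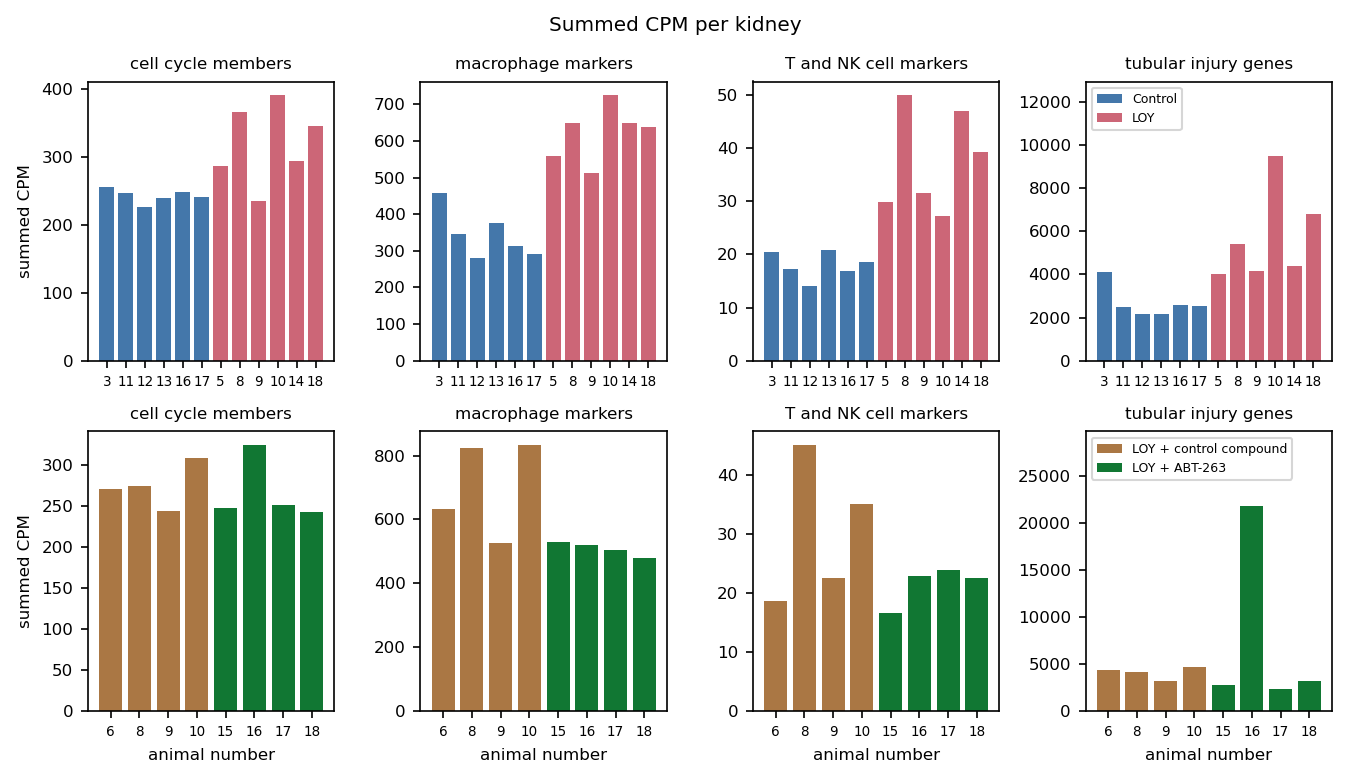
Summed CPM per kidney (bars, animal number below) of the 36 cell cycle genes and of 3 marker lists, for the LOY table (top) and the ABT-263 table (bottom). LOY animal 9 is within the Control range for the cell cycle sum (236 CPM) but not for the macrophage markers (512 CPM), and ABT-263 animal 16 stands apart in tubular injury genes (21800 CPM).

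Other genes of the cycle came from lists chosen by function. Of 60 further genes of mitosis 49 were tested, 46 had positive changes, 2 rose and 0 fell, and 22 were higher at an unadjusted p below 0.05, with a median of 0.57. Ckap2, a spindle microtubule protein, had 0.698, 1.05 and 1.33 CPM in the lowest, median and highest Control kidney and 1.92, 2.53 and 4.25 CPM in LOY kidneys (1.36 ± 0.27, edgeR adjusted p = 0.0343). The chromosome arm motor Kif22, whose exons overlap the predicted gene Gm31749, had 1.1, 1.73 and 2.14 CPM in Control and 2.57, 3.63 and 6.23 CPM in LOY kidneys (1.22 ± 0.27, adjusted p = 0.0436). Neither gene overlapped between groups, and both calls were lost without any one of Control animals 11, 12, 13, 16 and 17 or LOY animal 10 (adjusted p 0.0815 to 0.126). That of Kif22 was also lost without LOY animal 5, 8 or 9 (0.0507 to 0.0698).

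Of 51 further replication genes listed 50 were tested, because the symbol of claspin (Clspn) was misspelt in the list and not found. Of these 50 genes 36 were positive, 0 passed, 9 were higher and 2 lower at an unadjusted p below 0.05, and the median was 0.12. The smallest p belonged to the chromatin remodeller Hells (1.6 ± 0.452 and 3.33 ± 1.23 CPM, 1.07 ± 0.28, edgeR adjusted p = 0.079) and the clamp loader subunit Rfc3 (6.64 ± 0.899 and 10.1 ± 2.24 CPM, 0.60 ± 0.17, adjusted p = 0.0909). Of 30 tested genes of G1 and S phase control 16 were positive and 14 negative, 0 passed, and the median was 0.04. Here the transcription factor Myc was at 12.2 ± 3.63 and 22.5 ± 7.73 CPM (0.89 ± 0.23, adjusted p = 0.0673) and the E2F partner Tfdp2 at 67.8 ± 4.73 and 45.9 ± 11.6 CPM (-0.56 ± 0.15, adjusted p = 0.0727). Of the inhibitors of cyclin-dependent kinases, p21 (Cdkn1a), a p53 target, had 32.3, 39.1 and 56 CPM in Control and 48.6, 56.1 and 71.9 CPM in LOY kidneys (0.52 ± 0.14, adjusted p = 0.0702). Only Control animal 3 (56.0 CPM, the highest of its group) reached into the LOY range. For p57 (Cdkn1c) the log2 value was 0.65 ± 0.23 (adjusted p = 0.147), for p27 (Cdkn1b) it was -0.01 ± 0.09 and for p18 (Cdkn2c) -0.07 ± 0.15.

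In LOY kidneys the senolytic gave no member past the threshold in either direction, and the members were split evenly between higher and lower. With edgeR's quasi-likelihood test 0 of 36 members and 0 of 16956 genes passed (0% of all genes), 2 members were lower and 0 higher at an unadjusted p below 0.05 (2.96% of all genes lower and 2.95% higher), and DESeq2 and voom also called 0 members. Over all genes, 1002 had an unadjusted p below 0.05, DESeq2 called 42 genes and voom 7. Of the members 18 were positive and 18 negative (50.6% of all genes negative), with a median log2 fold change of 0.0049, and of -0.0028 over all genes. In 3 members every ABT-263 kidney was below every control-compound kidney, Kif23, Pcna and Birc5, against 2.25% of all genes, and in 0 above. The animals with control compound are numbered 6 to 10 and those with ABT-263 15 to 18, so animal number and treatment cannot be told apart in this table.

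Kif23 had 16.3, 18.8, 11.6 and 18.8 CPM with control compound (animals 6, 8, 9 and 10) and 8.37, 10.9, 11.1 and 11.2 CPM with ABT-263 (animals 15, 16, 17 and 18). The groups did not overlap, and animal 9, at 11.6 CPM, came closest to the ABT-263 kidneys. Its means were 16.4 ± 3.4 and 10.4 ± 1.35 CPM (SD, n = 4 each), a fold of 0.633 (95% interval 0.472 to 0.849) and a log2 fold change of -0.66 ± 0.17, with an edgeR adjusted p of 0.657 and the place of 71 in the order of p over all genes. Pcna had 37.6, 30.7, 32.3 and 33.2 CPM with control compound and 22.2, 29.7, 24.7 and 27.7 CPM with ABT-263. The groups did not overlap, with animal 16 the highest of the ABT-263 kidneys (-0.36 ± 0.11, edgeR adjusted p = 0.662). Birc5 had 2.23, 2.23, 2.16 and 2.09 CPM with control compound and 1.65, 1.91, 1.45 and 1.38 CPM with ABT-263. The control-compound values were nearly equal, and the log2 fold change was -0.45 ± 0.23 (adjusted p = 0.844). Prc1, the midzone bundler, had 3.29, 3.51, 4.92 and 4.44 CPM and 2.24, 3.87, 2.79 and 1.93 CPM, overlapping through animal 16 (-0.57 ± 0.26, edgeR adjusted p = 0.827).

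**Figure D5:**
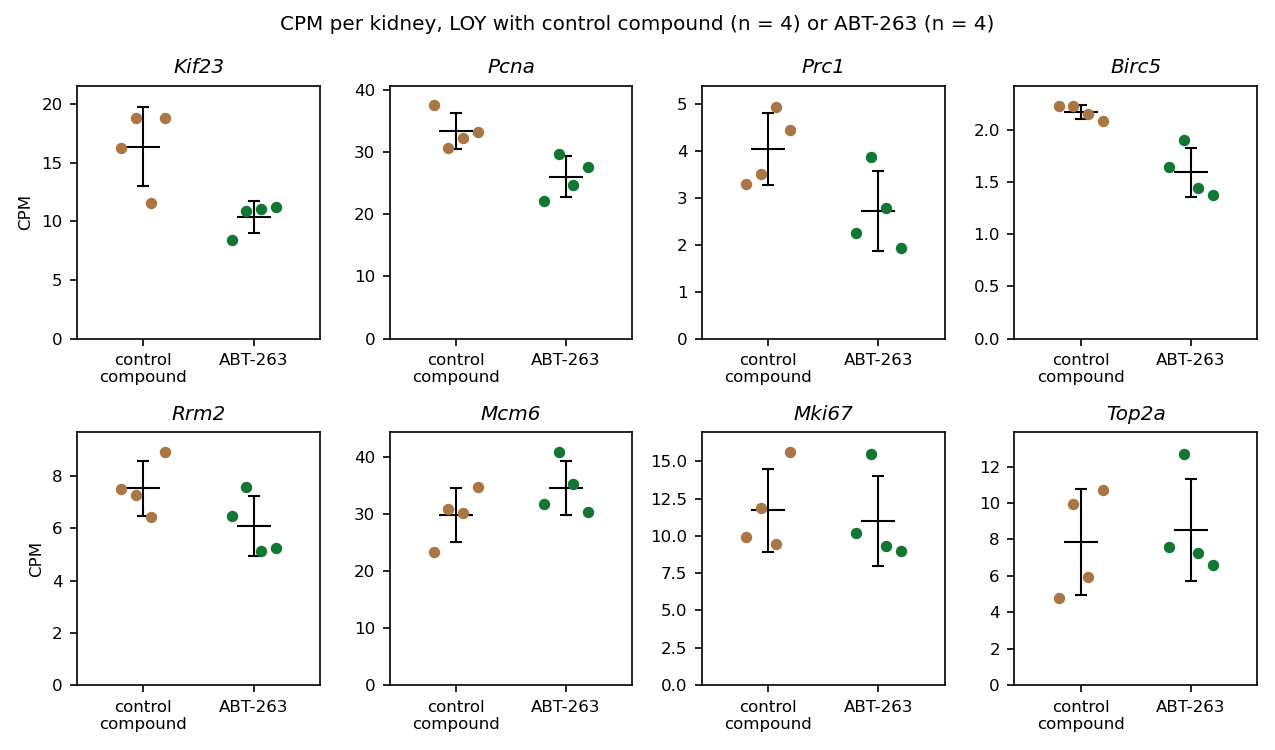
CPM of 8 genes in each LOY kidney (points), control compound (n = 4) against ABT-263 (n = 4), with the mean (wide bar) and SD (error bars). The groups do not overlap for Kif23, Pcna and Birc5, and the highest ABT-263 kidney for Prc1, Rrm2, Mcm6, Mki67 and Top2a is animal 16.

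Grouped by role, all 5 of the cyclins and Cdk1 were negative with ABT-263 (-0.38 to -0.17), none past the threshold. Cdk1 had 3.29, 3.09, 2.04 and 3.49 CPM with control compound and 2.24, 2.89, 1.81 and 2.21 CPM with ABT-263 (-0.38 ± 0.25, edgeR adjusted p = 0.852). Ccnb1 had 1.86 ± 0.809 and 1.55 ± 0.498 CPM (-0.26 ± 0.37, adjusted p = 0.937). All 6 MCM subunits were positive (0.11 to 0.21). Mcm6 had 23.4, 30.9, 30.1 and 34.7 CPM and then 31.7, 40.9, 35.2 and 30.4 CPM (0.21 ± 0.13, edgeR adjusted p = 0.847). Mcm2 was at 0.14 ± 0.18 and Mcm5 at 0.17 ± 0.27. Without animal 16, 4 of the 6 turned negative: Mcm2 (-0.01), Mcm3 (-0.14), Mcm4 (-0.02) and Mcm5 (-0.20). Rrm2 had 7.51, 7.26, 6.42 and 8.92 CPM and 6.46, 7.57, 5.12 and 5.24 CPM (-0.30 ± 0.18, adjusted p = 0.847), and Tyms and Tk1 were at -0.16 and 0.03. Mki67 had 9.92, 11.9, 9.48 and 15.6 CPM and 10.2, 15.5, 9.32 and 8.97 CPM, with both groups spread over the same range (-0.10 ± 0.22, edgeR adjusted p = 0.962, 95% interval of the fold 0.649 to 1.35). Top2a had 4.81, 9.97, 5.94 and 10.7 CPM and 7.58, 12.7, 7.25 and 6.62 CPM (0.12 ± 0.29, adjusted p = 0.969, fold 0.661 to 1.78), and Ezh2 had a log2 fold change of 0.01 ± 0.19. Plk1, which rose with LOY, had 2.58, 1.76, 1.44 and 1.94 CPM with control compound and 2.64, 2.66, 1.81 and 1.31 CPM with ABT-263 (0.13 ± 0.30, edgeR adjusted p = 0.965, fold 0.655 to 1.82). The remaining members of all roles had log2 fold changes between -0.44 (Tpx2) and 0.38 (Bub1).

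ABT-263 animal 16 stood apart from the other 7 kidneys of its table. Its summed level of the 16 tubular injury genes was 21800 CPM, against 2340 to 4680 CPM in the others, and its summed cell cycle level was 325 CPM, against 243 to 251 CPM in the other ABT-263 kidneys and 244 to 309 CPM with control compound. It had the highest value of the table in 12 of 36 members. Without animal 16, 26 of 36 members were negative with a median of -0.14, and 0 passed edgeR's test. At an unadjusted p below 0.05, 5 were lower (Kif23, Pcna, Rrm2, Tpx2 and Prc1). The shares of all genes in this fit are not given here, so these counts have no background beside them and are not read as a fall. Control-compound animal 10 had the highest value in 15 of 36 members, and leaving it out gave a median of 0.07. Macrophage markers summed to 527 to 835 CPM with control compound and 479 to 530 CPM with ABT-263, T and NK cell markers to 18.6 to 45.2 and 16.6 to 23.9 CPM, and B and plasma cell markers to 371 to 696 and 81.4 to 193 CPM. Of these lists 14 of 15, 13 of 13 and 8 of 9 tested genes were negative and 0 passed, and the part of these cells in the cell cycle values was not tested.

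The other cell cycle lists gave 0 genes past the threshold with ABT-263. Of 52 tested genes of mitosis 34 were negative (median -0.07), with the smallest p for the kinesin Kif18b (0.58 ± 0.33) and Ckap2 (-0.49 ± 0.30, edgeR adjusted p = 0.847 for both). Of 50 replication genes 35 were positive (median 0.10). The DNA polymerase delta subunit Pold1 had 10.8 ± 1.85 and 15.1 ± 3.09 CPM without overlap (0.49 ± 0.17, adjusted p = 0.736), and the maintenance methyltransferase Dnmt1 33.2 ± 3.6 and 42.5 ± 9.0 CPM (0.36 ± 0.14, adjusted p = 0.816). Of 31 genes of G1 and S phase control 21 were negative (median -0.04). The G1 kinase Cdk6 had 50.9 ± 2.51 and 42.2 ± 4.35 CPM without overlap (-0.27 ± 0.09, edgeR adjusted p = 0.691), and its partner cyclin D1 (Ccnd1) 216 ± 20.3 and 249 ± 26.9 CPM (0.21 ± 0.10, adjusted p = 0.827). Of the inhibitors, p57 (Cdkn1c) was lower without overlap, at 30.9 ± 3.11 and 24.7 ± 1.83 CPM (-0.32 ± 0.10, edgeR adjusted p = 0.671), p21 (Cdkn1a) had 108 ± 9.63 and 93.9 ± 14.9 CPM (-0.20 ± 0.12, adjusted p = 0.847), p27 (Cdkn1b) a log2 fold change of 0.07 ± 0.08 and p18 (Cdkn2c) of 0.26 ± 0.13.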

How the data were processed

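RNA sequencing of whole kidney gave 1 library per animal. The authors deposited gene counts in 2 tables, as whole numbers that had not been normalized. The genome build was mm10, per the submitters' processing notes. The sources used here do not give the aligner, annotation, counting program or strand setting. The tables name different gene sets, so levels were never compared between them. Counts without a gene name (0.223% to 0.401% of each library of the LOY table) were left out.

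Each table was tested apart in R 4.3.3 by the robust quasi-likelihood F test of edgeR 4.0.16, with TMM scaling, its default filter on low counts (minimum count 10, minimum total 15), Benjamini-Hochberg adjustment over all tested genes and a threshold of 0.05. Standard errors were derived from F and the log2 fold change, and 95% intervals of folds from them. CPM use TMM-scaled totals. DESeq2 1.42.0, voom with sample quality weights (limma 3.58.1), other scalings and filters, and leaving out kidneys were the alternatives. Exon lengths and gene positions are from GENCODE M21 (GRCm38). Replicate libraries were distinct: the lowest ratio of count differences to sampling noise was 3.93 over 30 pairs and 3.36 over 12 pairs.

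The 36 members, the other lists and the alternatives were chosen with earlier results of these data known. Genes named in full are members past the threshold, up to 6 more members per table with the smallest p, 9 fixed members (Mki67, Top2a, Cdk1, Ccnb1, Mcm2, Mcm5, Pcna, Rrm2 and Ezh2), genes past the threshold or else the 2 with the smallest p of each other cell cycle list, and 4 kinase inhibitors. Every member is accounted for by role. The scripts were tested on simulated data.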

Additional observations from a re-analysis of the deposited data

Results flagged for a closer look

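Over both tables together, 56 groups of values were checked, and 3 held a value further from the rest than Dixon's test allows. All 3 were groups of 4 kidneys in the ABT-263 table. Chance alone does this in about 1 group in 20. Kif23 was at 8.37 CPM in ABT-263 animal 15, and the nearest of the other 3 ABT-263 kidneys was at 10.9 CPM. Top2a was at 12.7 CPM in ABT-263 animal 16, and the next was at 7.58 CPM. The summed level of the 36 members was 325 CPM in ABT-263 animal 16, and the next was at 251 CPM. Animal 16 also had the highest tubular injury sum (21800 CPM).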

How the results depend on the processing

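In the LOY comparison the median log2 fold change of the members was positive under every alternative tried, from 0.3433 with voom to 0.6602 without LOY animal 9. The calls moved more. Of all genes 176 passed in the reported test, 105 with library totals alone, 815 with DESeq2, 1077 with voom, 451 among animals numbered above 10, 29 without LOY animals 8 and 10, and 0 with animal number as a term. Leaving out 1 kidney at a time gave 0 to 607 genes and 0 to 7 members. Of the members 2 passed in the reported test, 10 with DESeq2, 7 with voom, 4 among animals numbered above 10, and 0 with animal number as a term or without LOY animals 8 and 10. These last alternatives use fewer animals or fit 1 more term, and the cause of the moves was not tested. The log2 fold changes of Plk1 and Birc5 kept their sign throughout. Both were past the threshold under every other scaling, filter and tool, while Kif22 missed it with library totals alone (edgeR adjusted p = 0.0526) and with no count filter (0.0549). The near-zero values of Cdkn1b turned positive with upper-quartile scaling (0.0066), library totals alone (0.0073), animal number as a term (0.0936), animals above 10 alone (0.0704) and without LOY animals 8 and 10 (0.0201). Mcm2 turned to -0.0765 with voom. Other members also changed sign. Tk1 turned to -0.0595 with voom, -0.0365 among animals above 10 alone and -0.1437 without LOY animals 8 and 10. Mcm7 turned to -0.0203 with animal number as a term, -0.0961 among animals above 10 alone and -0.0273 without LOY animals 8 and 10. The near-zero negative value of Mcm6 turned to 0.0091 with voom, 0.0366 without LOY animal 9 and 0.0396 with animal number as a term. Among animals above 10 alone Mcm6 was at 0.2136. The near-zero negative value of Ccne2 turned to 0.003 without LOY animal 9. Without 1 kidney at a time Cdkn1b ranged from -0.0442 to 0.0145, Mcm2 from -0.1003 to 0.2163 and Cdkn2c from -0.2157 to 0.0069.

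In the ABT-263 comparison 0 members passed under every alternative. Of all genes 42 passed with DESeq2, 7 with voom, and 0 to 9 when 1 kidney at a time was left out. The median of the members, 0.0049, turned to -0.1116 with voom and ranged from -0.1383 (without animal 16) to 0.0651 without 1 kidney at a time, so it has no firm sign. With voom Top2a was at -0.1754, Mcm5 at -0.1347 and Ezh2 at -0.0839. Without 1 kidney at a time Top2a ranged from -0.1361 to 0.2995, Mcm5 from -0.1969 to 0.3114, Mcm2 from -0.0101 to 0.2815, Ezh2 from -0.1257 to 0.1073, Mki67 from -0.3063 to 0.0727 and Ccnb1 from -0.4325 to 0.0037. No paired analysis was possible because the groups compared within each table share no animal number. Several members had under 2 CPM, where counting error is a large part of the spread. In the LOY table Bub1 was below the count filter of the reported test. DESeq2, run without that filter, gave it a log2 fold change of 1.03 ± 0.67 (DESeq2 adjusted p = 0.321).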

Other observations

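Among the inhibitors of cyclin-dependent kinases, 2 fell below the count filter of the LOY table and were looked at after their values were seen. Cdkn2a, which encodes p16 and p19ARF and is used as a marker of senescent cells, had 29 counts over the 6 Control kidneys and 105 over the 6 LOY kidneys. This is 0.331 ± 0.197 and 1.07 ± 1.03 CPM (SD, n = 6 each), with ranges of 0.0733 to 0.665 and 0.37 to 3.11 CPM that overlapped. Cdkn3, a phosphatase that acts on cyclin-dependent kinases, had 26 and 113 counts, or 0.276 ± 0.251 and 1.11 ± 0.66 CPM, and its ranges overlapped too. In the ABT-263 table Cdkn2a had 16 counts with control compound and 19 with ABT-263 (4 kidneys each). No test result is reported here for Cdkn2a in either table.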
